A study of Mus musculus with 2 samples.

Results

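Fatty acid oxidation enzymes were compared between osteoclasts and the bone marrow macrophages from which they are made. The set held 31 listed genes and was chosen by name, as every probe that the platform annotation gives to a listed gene. A total of 66 probes for 30 of these genes were found, out of 45281 probes and 19057 named genes on the array, and Acsl1 had no probe under its name. The osteoclast sample came from the marrow of the tibia and femur of C57BL/6J mice aged 8 to 12 weeks, plated for 4 days in 25 ng/ml M-CSF, the growth factor of macrophages, and then kept for 3 days in M-CSF at 25 ng/ml plus soluble RANKL at 30 ng/ml, which turns such cells into osteoclasts. The macrophage sample came from marrow of mice of the same strain and age grown with M-CSF at 25 ng/ml, and the labels do not say whether it was taken before or after the last 3 days. The labels give 3 mice per sample without saying whether their RNA was pooled. Each sample was read on 1 Illumina bead array, on which the brightness of an oligonucleotide probe reads the amount of a transcript. There was no replicate array, so no difference below has a test or an error. By their labels the arrays were on different chips, and chip and cell type cannot be told apart.

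Fatty acids are burned inside mitochondria in a repeating cycle. Acyl-CoA synthetases activate the chain, the carnitine shuttle carries it across the inner membrane, and each turn of dehydrogenation, hydration, a further dehydrogenation and thiolysis releases acetyl-CoA for the citric acid cycle. Electrons from the dehydrogenation that opens each turn pass through electron transfer flavoprotein to the respiratory chain. Peroxisomes run a parallel cycle with their own oxidases, bifunctional enzymes and thiolase, which shortens very long and branched chains. Osteoclasts are rich in mitochondria, and bone resorption consumes much ATP.

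The cell labels were checked against marker genes. Of 8 osteoclast markers 7 were detected, all at least 2-fold higher in osteoclasts, with a summed intensity of 97667 on the osteoclast array against 653 on the macrophage array, while Atp6v0d2 was detected on neither. After the normalization described below, all 6 macrophage markers with a probe were at least 2-fold lower in osteoclasts, and 4 were without it. Their summed intensity was still 12063 in osteoclasts against 27647 in macrophages. Markers of other cells differed too. Skeletal muscle markers summed to 14761 in osteoclasts against 223 in macrophages, epidermis markers to 18146 against 120, fibroblast markers to 1972 against 20.9 and adipocyte markers to 518 against 36.0, and granulocyte markers summed to 873 in osteoclasts against 48914 in macrophages. On the macrophage array Acta1 and Ckm of muscle and Adipoq of adipocytes lay below the detection limit, as did Mpo and Retnlg of granulocytes on the osteoclast array. Muscle and fat are rich in fatty acid oxidation enzymes, and the part of such cells in the results below was not tested. On the macrophage array the granulocyte markers summed to more than the macrophage markers, and the part of granulocyte RNA was not tested either. In bulk RNA, fewer cells of a type and less RNA per cell cannot be told apart.

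The osteoclast array was the brighter one for most probes. In the deposited intensities, 46 of the 50 member probes detected on both arrays were higher in osteoclasts, against 82.2% of all probes detected on both. The intensity ratio of those 50 probes, osteoclasts over macrophages, had a median of 2.35 and ran between 0.486 and 19.1, while the median ratio of all genes detected on both arrays was 1.72. A probe was called detected above 7.25 on the osteoclast array and above 4.40 on the macrophage array, limits that an estimated background exceeds with a one-sided probability of 0.01. Differences below are osteoclasts minus macrophages on the log2(corrected intensity + 16) scale after quantile normalization, which removes the overall gap in brightness. The added 16 understates the change of dim genes. Each gene stands by its brightest probe.

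**Figure D1:**
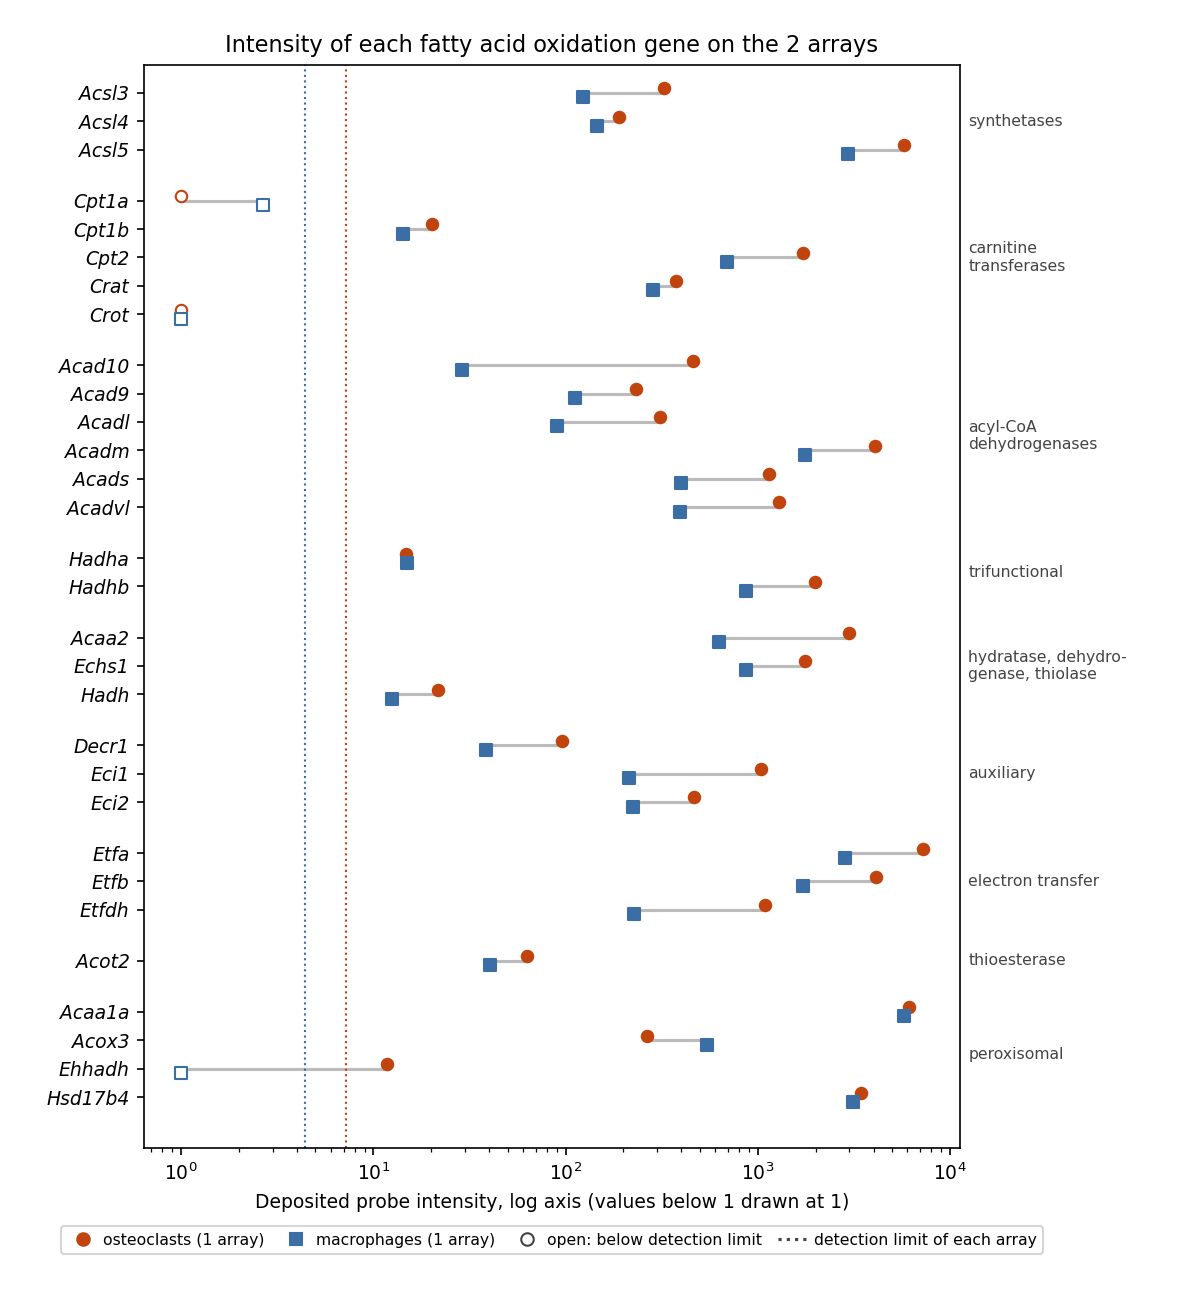
Deposited intensity (log axis) of the brightest probe of each of the 30 measured genes, ordered by role, on the osteoclast array (circles) and the macrophage array (squares), 1 array each. Open symbols lie below the detection limit (dotted lines) and values below 1 are drawn at 1; among genes detected on both arrays the gap is widest for Acad10, and Acox3 is the member clearly dimmer in osteoclasts.

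Of the 30 measured genes 28 were detected on at least 1 array, 27 of them on both, and Cpt1a and Crot were detected on neither. After normalization, 4 members passed 2-fold upward in osteoclasts and 1 downward, and the other 23 differed by less. The higher members were Acad10, Acaa2, Eci1 and Etfdh, all of the mitochondrial pathway, and the lower one was Acox3, a peroxisomal oxidase. The 4 higher members made up 14.3% of those detected, close to the 11.5% of all 13103 detected genes that were 2-fold higher, and the single lower member 3.57% against 8.15%. Smaller shifts were mostly upward. A difference above 0 was found for 19 members (67.9%), against 47.1% of all detected genes, and the median difference was 0.34 (1.27-fold) against -0.05 for all detected genes. In the authors' processed values the median of the members was also 0.34, with 19 above 0, against 0.00 and 50.2% for all genes. Without normalization the median of the members was 1.00 against 0.58.

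The regions upstream of the start sites of Acad10, Etfdh, Eci1 and Acox3, which passed 2-fold, are shown with that of Etfb, which did not. They are the 250 bases before each start in the RefSeq promoter table of build GRCm38.p6, 5′ to 3′ on the gene's strand, and the table held 24 of the 30 genes (not Acaa2, Acad9, Cpt1b, Crat, Decr1 or Hsd17b4). Both strands were searched for the short site of the estrogen-related receptors, TNAAGGTCA, for the direct repeat bound by PPAR with RXR, AGGTCANAGGTCA, and for the core of the NRF1 site, GCGCANGCGC; these are known regulators of mitochondrial and fatty acid genes. Capitals mark NRF1 core matches. Neither the short site nor the direct repeat occurred in these windows of the 24 genes, and they occurred in 1.14% and 0.0335% of all 32851 windows of this length. The NRF1 core occurred in 3 of the 24 genes, Acad10, Etfdh and Etfb, and in 3.74% of all windows. Etfb was within 2-fold (0.53). The windows shown hold every match among the 24 genes, so their share with a match is not that of the members. A match is a run of letters and not shown to be a bound site. The match began 44 bases upstream of the start of Acad10 (chr5:121660511-121660760, minus strand), 128 bases upstream of that of Etfdh (chr3:79628768-79629017, minus strand), where it reads the same on both strands, and 11 bases upstream of that of Etfb (chr7:43443822-43444071, plus strand). None was found for Eci1 (chr17:24426433-24426682, plus strand) or Acox3 (chr5:35582784-35583033, plus strand).
Acad10: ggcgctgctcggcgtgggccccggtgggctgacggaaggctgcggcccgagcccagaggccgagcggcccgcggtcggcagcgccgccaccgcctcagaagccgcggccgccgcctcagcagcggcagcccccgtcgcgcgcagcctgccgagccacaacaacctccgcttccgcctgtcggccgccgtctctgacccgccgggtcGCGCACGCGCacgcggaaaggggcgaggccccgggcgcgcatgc
Etfdh: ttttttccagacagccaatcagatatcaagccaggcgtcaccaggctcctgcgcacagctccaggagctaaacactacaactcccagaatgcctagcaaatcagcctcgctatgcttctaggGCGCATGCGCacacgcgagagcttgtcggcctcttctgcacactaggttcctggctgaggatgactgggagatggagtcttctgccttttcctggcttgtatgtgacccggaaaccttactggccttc
Etfb: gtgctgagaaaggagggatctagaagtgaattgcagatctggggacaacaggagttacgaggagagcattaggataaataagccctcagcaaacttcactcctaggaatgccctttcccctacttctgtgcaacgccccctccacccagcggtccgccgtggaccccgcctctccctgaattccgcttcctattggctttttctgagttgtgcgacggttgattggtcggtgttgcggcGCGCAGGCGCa
Eci1: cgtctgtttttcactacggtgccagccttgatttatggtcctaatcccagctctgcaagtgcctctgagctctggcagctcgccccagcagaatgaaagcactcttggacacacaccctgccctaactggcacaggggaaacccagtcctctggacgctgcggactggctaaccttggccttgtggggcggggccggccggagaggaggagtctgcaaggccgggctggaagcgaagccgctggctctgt
Acox3: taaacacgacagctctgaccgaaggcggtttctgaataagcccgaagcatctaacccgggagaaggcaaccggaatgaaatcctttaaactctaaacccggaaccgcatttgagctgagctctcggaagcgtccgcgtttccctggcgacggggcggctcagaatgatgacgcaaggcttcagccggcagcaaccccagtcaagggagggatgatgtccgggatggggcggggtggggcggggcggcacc

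Acyl-CoA synthetases, which activate fatty acids for every later use, lay within 2-fold. Acsl5, of the mitochondrial outer membrane and endoplasmic reticulum, had an intensity of 5733 in osteoclasts against 2931 in macrophages, a normalized difference of 0.29, and its 3 probes detected on both arrays lay between 0.19 and 0.35. Acsl3, a synthetase of lipid droplets, had 325 against 124 and a difference of 0.40. Acsl4, which prefers arachidonic acid, had 190 in osteoclasts against 145 in macrophages. Its normalized difference was -0.52, or 0.35 without normalization, and the 3 probes detected on both arrays spread between -0.76 and 0.00.

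The carnitine acyltransferases lay within 2-fold where they were detected. Cpt2, which remakes acyl-CoA inside the mitochondrion, had 1717 in osteoclasts against 693 in macrophages, and its 3 probes gave 0.49, 0.61 and 0.62. The probes for its outer membrane partners Cpt1a and Cpt1b were dim. Neither probe of Cpt1a, the liver isoform and the main point of control of the pathway, was detected on either array, with intensities of -6.69 and -3.35 in osteoclasts against 2.65 and -7.73 in macrophages. The brighter probe of Cpt1b, the isoform of muscle, had 20.3 in osteoclasts against 14.2 in macrophages, a difference of -0.17 (0.29 without normalization), and its other probe was detected in macrophages only (6.48 in osteoclasts against 13.1). Cpt1b was within 2-fold at its brighter probe, and both of its probes were dim in both samples. Mb, a marker of muscle fibres, had 145 in osteoclasts against 16.1 in macrophages, and the part of muscle RNA in these values was not tested. Crat, the carnitine acetyltransferase of mitochondria and peroxisomes, had 377 in osteoclasts against 285 in macrophages and a difference of -0.49 at its brightest probe (0.39 without normalization), while its other probes gave 0.20 and -0.02. Crot, its peroxisomal relative for medium chains, was not detected at its 1 probe (-3.42 in osteoclasts against -6.83 in macrophages). These readings do not show that the transcripts of Cpt1a or Crot were absent, since a probe can miss them.

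The acyl-CoA dehydrogenases open each turn of the cycle, and all 6 had a difference above 0 at their brightest probe, with a median of 0.69 (1.61-fold). A difference above 0 was found for 47.1% of all detected genes. Acad10, a poorly understood family member, had 461 in osteoclasts against 28.8 in macrophages, which was 5.70-fold higher after normalization and stood at percentile 97.7 of all detected genes. A second probe gave 368 against 19.3 and a difference of 2.60, and a further one was detected on neither array. Acadvl, for very long chains, had 1287 in osteoclasts against 393 in macrophages and differences of 0.85 and 0.99 at its probes. Acadl, for long chains, had 310 against 90.0 and a difference of 0.71, but another probe detected on both arrays gave 91.4 against 58.3 and -0.31. Acads, for short chains, had 1145 against 399 and 0.66, with 0.04 at its other probe. Acadm, the medium-chain enzyme, had 4059 against 1767 and 0.47 at its only probe. Acad9, which also serves in the assembly of respiratory complex I, had 232 in osteoclasts against 112 in macrophages, and its probes gave 0.08 and 0.27. Differences of the chain-length enzymes thus fell between 0.47 and 0.85 at the brightest probes, short of 2-fold.

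The rest of the mitochondrial cycle was less even. Hadhb, the beta chain of the trifunctional protein of the inner membrane, had 1981 in osteoclasts against 870 in macrophages and a difference of 0.40. Hadha, which encodes the alpha chain, had 14.9 on both arrays and a difference of -0.38 (0.06 without normalization). Its only probe is annotated to a cDNA clone record and not to a RefSeq transcript, as are 4 further member probes, and all 5 had intensities of at most 15.4 in osteoclasts and at most 15.0 in macrophages. The genes lie head to head on chromosome 5 with 272 bases between their start sites in the RefSeq table, and their upstream windows share 228 bases. The window of Hadhb (chr5:30155003-30155252, plus strand), with no match to the motifs above, is shown because its first 228 bases are the stretch that both windows share.
Hadhb: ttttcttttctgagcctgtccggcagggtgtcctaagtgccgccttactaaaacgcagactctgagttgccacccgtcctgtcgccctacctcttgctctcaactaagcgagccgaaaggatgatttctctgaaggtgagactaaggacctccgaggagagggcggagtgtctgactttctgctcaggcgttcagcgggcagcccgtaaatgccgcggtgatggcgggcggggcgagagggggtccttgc

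Acaa2, the thiolase that closes the matrix cycle, differed alike at all of its probes. Its 4 probes had 2992, 2564, 2167 and 1154 in osteoclasts against 631, 447, 467 and 232 in macrophages. All 4 differences lay between 1.36 and 1.66, and at the brightest probe the gene was 2.72-fold higher (percentile 93.4). Echs1, the short-chain hydratase, had 1762 in osteoclasts against 872 in macrophages, a difference of 0.21, but its other probe, dim at 15.4 against 15.0, gave -0.36 and the mean of both was -0.08. Hadh, the hydroxyacyl-CoA dehydrogenase of the matrix, had 21.7 against 12.5 and a difference of -0.04, which was 0.41 without normalization and 0.09 under median scaling. Among the enzymes that handle double bonds, Eci1, the matrix isomerase, had 1040 in osteoclasts against 214 in macrophages and was 2.52-fold higher at its only probe (percentile 92.5). Decr1, the dienoyl-CoA reductase, had 95.5 against 38.6 and 0.18, and Eci2, an isomerase of mitochondria and peroxisomes, had 468 against 224 and 0.11.

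All 3 genes of the electron transfer branch had differences above 0, against 47.1% of all detected genes. Etfdh, which hands the electrons to ubiquinone, had 1086 in osteoclasts against 227 in macrophages and was 2.50-fold higher (percentile 92.3). Its other probes were dim, at 11.1, 10.6 and -0.26 in osteoclasts against 7.61, 0.58 and -2.84 in macrophages, and the one of them detected on both arrays gave -0.13, so the call rests on 1 probe. Etfa and Etfb encode the flavoprotein itself. Etfa had 7229, 2914 and 2048 at its probes in osteoclasts against 2834, 1150 and 781 in macrophages, with differences of 0.68, 0.58 and 0.58. Etfb had 4107 and 2780 in osteoclasts against 1712 and 1157 in macrophages, with differences of 0.53 and 0.49. The flavoprotein chains thus differed by nearly the same amount at all their probes. Acot2, a mitochondrial thioesterase that releases free fatty acid, had 62.7 in osteoclasts against 40.7 in macrophages and a difference of -0.29, or 0.47 without normalization and 0.09 under median scaling.

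**Figure D2:**
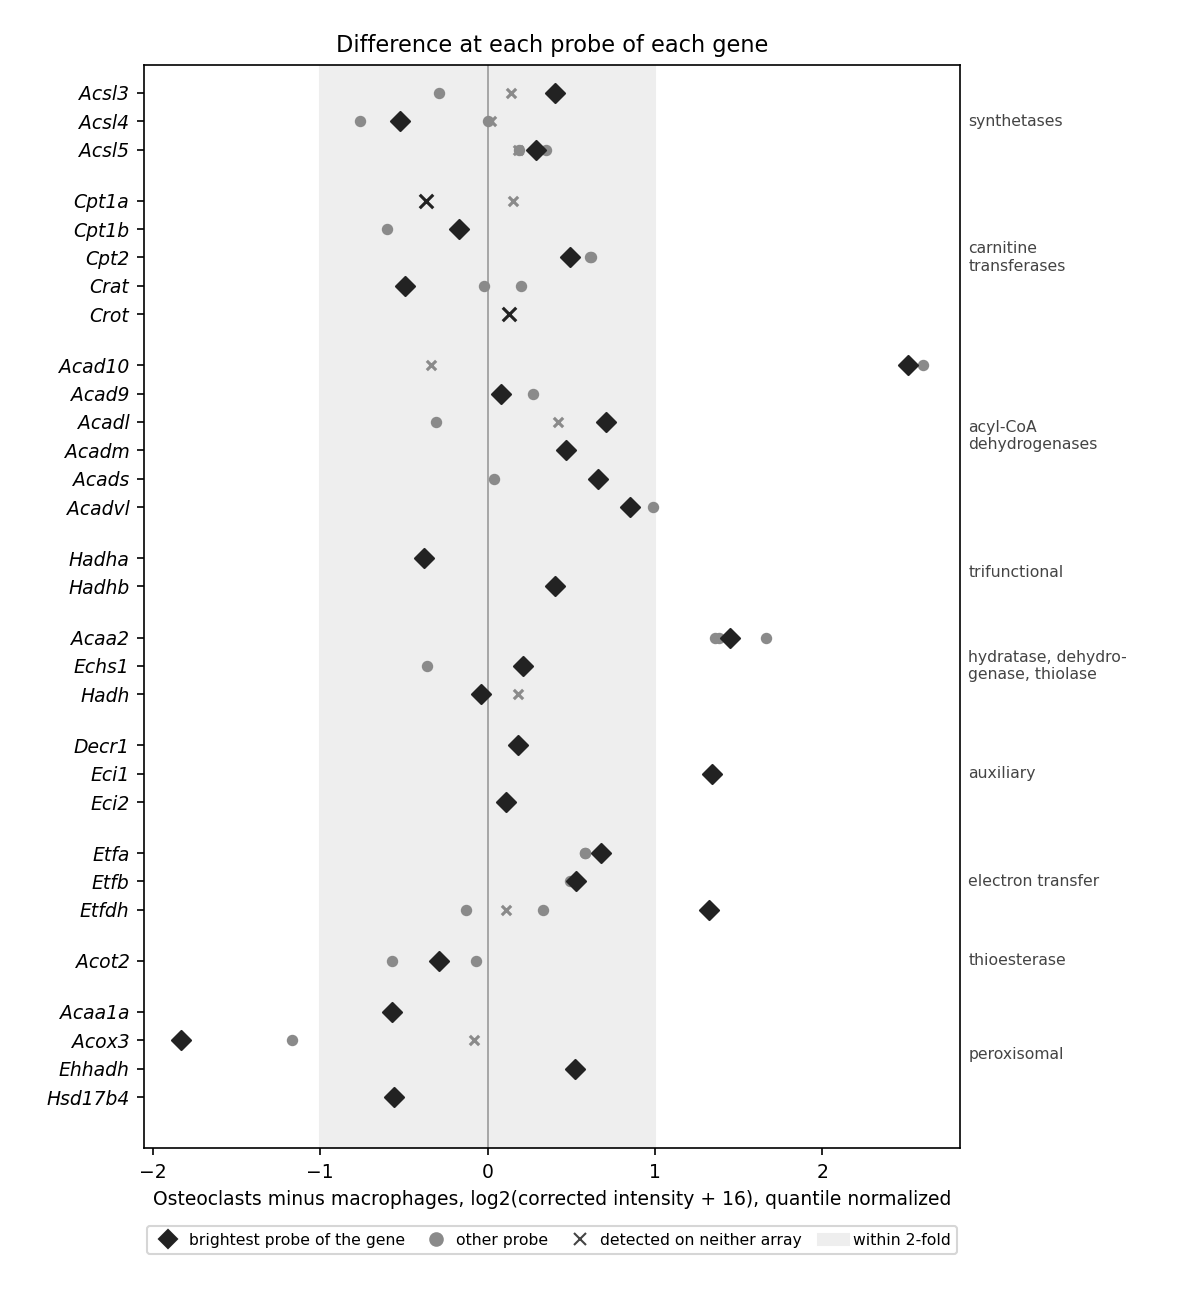
Normalized difference (osteoclasts minus macrophages, log2) at all 66 probes of the 30 genes, with the brightest probe of each gene as a diamond, other probes as dots and probes detected on neither array as crosses; the grey band is within 2-fold. Both detected probes of Acad10 and all 4 of Acaa2 lie right of the band, and both detected probes of Acox3 lie left of it.

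Agreement between probes of a gene was the only check on single values that these arrays allowed. For 16 genes with several probes detected on both arrays, the span between the lowest and highest difference had a median of 0.26. The span passed 1 log2 unit for 2 genes, Acadl (1.03) and Etfdh (1.44). After quantile normalization, differences past 2-fold of Acad10, Acaa2 and Acox3 were present at every probe of theirs detected on both arrays, while Eci1 had a single probe. For Acox3 this depended on the scaling. Its second probe was within 2-fold in the authors' values (-0.91), under median scaling (-0.84) and without normalization (-0.47). Its brightest probe was within 2-fold without normalization (-0.98).

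Of the 4 detected peroxisomal members, 3 had a difference below 0 after normalization and 1, Ehhadh, above it. Among all detected genes 47.1% were above 0. Acox3, which oxidises branched chains, had 264 in osteoclasts against 544 in macrophages and was 3.55-fold lower (percentile 2.56), and a second probe had 35.6 against 58.8 and a difference of -1.17. Hsd17b4, the D-bifunctional protein, had 3455 in osteoclasts against 3141 in macrophages, and Acaa1a, the peroxisomal thiolase, had 6085 against 5743. Their intensities were nearly equal on the arrays, which gave normalized differences of -0.56 and -0.57, or 0.14 and 0.08 without normalization. Ehhadh, the L-bifunctional protein, was detected in osteoclasts only (11.8 against -2.14), with a measured difference of 0.52, and was at least 1.08-fold higher.

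The 19 detected mitochondrial members had a median difference of 0.49 (1.40-fold), with 15 above 0. The 4 detected peroxisomal members had a median of -0.57 (0.68-fold), with 1 above 0. Among all detected genes 47.1% were above 0. The 5 members found in several compartments had a median of 0.11. The gap between the mitochondrial and peroxisomal medians was 1.06 log2 units, and between 1.04 and 1.23 under the alternative scalings tried. The sign of the peroxisomal median depended on the scaling, since without normalization it was 0.11, but all detected genes then had a median of 0.58. Relative to all detected genes the peroxisomal median lay between -0.79 and -0.47 under the 7 scalings, and the mitochondrial one between 0.44 and 0.67. The peroxisomal median rests on 4 genes, and no test of the gap was possible.

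**Figure D3:**
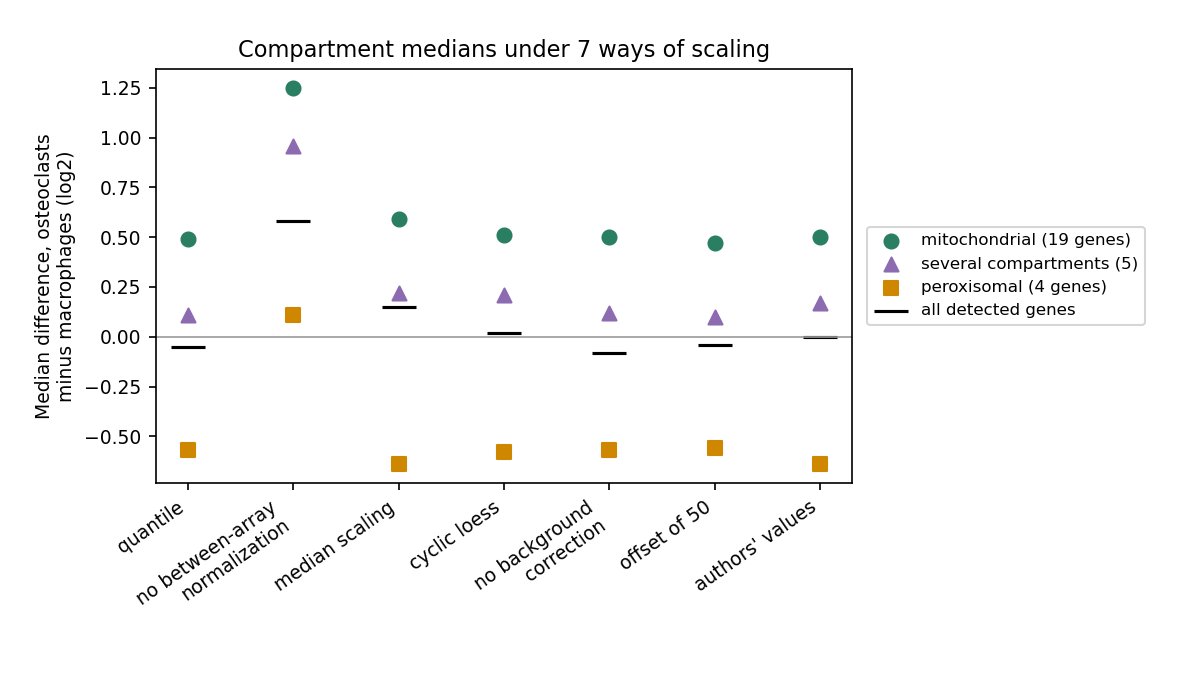
Median difference (osteoclasts minus macrophages, log2) of the 19 mitochondrial members, the 5 of several compartments and the 4 peroxisomal members, with all detected genes as bars, under 7 ways of scaling. The mitochondrial median lies above and the peroxisomal median below that of all genes in each column.

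Other enzymes of these pathways, listed beside the members, were closer to the rest of the array. Among all detected genes, 11.5% were 2-fold higher in osteoclasts and 8.15% lower, and 29.1% were higher without normalization. Of 13 detected peroxisomal enzymes and transporters outside the set, 2 passed 2-fold downward and 0 upward (1 and 2 without normalization). The median was 0.15 over the 13. The lower genes were Abcd2, a peroxisomal importer of very long chains (45.6 in osteoclasts against 115 in macrophages, 3.35-fold lower), and Cat, the catalase that removes the hydrogen peroxide made by the oxidases (1304 against 2354, 3.02-fold lower). With the members added, 17 peroxisomal genes had a median of 0.01 and 3 were 2-fold lower, so the lower median above is that of the listed members and not of the wider group. Among 14 further mitochondrial enzymes, 2 passed 2-fold upward and 2 downward (4 and 1 without normalization), around a median of 0.04. Hsd17b10, which acts on branched-chain intermediates, had 4049 in osteoclasts against 834 in macrophages (2.84-fold higher), and Acsf3, a malonyl-CoA synthetase, had 187 against 32.9 (2.25-fold higher). Acsf2 was detected in macrophages only and was at least 2.31-fold lower in osteoclasts, and Acadsb, a branched-chain dehydrogenase, had 368 against 417 and was 2.04-fold lower, but within 2-fold in the authors' values (-0.98), under median scaling (-0.71) and without normalization (-0.17). Over the members and these enzymes together, 33 mitochondrial genes had a median of 0.21 against the 0.01 of the 17 peroxisomal genes, so the gap of the listed members was much smaller over the wider lists. Slc25a20, the carrier that moves acylcarnitine into the matrix, had 1528 in osteoclasts against 969 in macrophages and a difference of -0.14, with 0.37 at its other detected probe.

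Peroxisome biogenesis genes had a median of -0.01 over 13 detected members. Of these, 2 were at least 2-fold higher (against 11.5% of all detected genes) and 0 lower (against 8.15%). The number higher was 3 under median scaling and 4 without normalization, where 29.1% of all detected genes were 2-fold higher. Pex10, a subunit of the ring of ubiquitin ligases that recycles the import receptor, had 495 in osteoclasts against 49.4 in macrophages (4.10-fold higher), but its other detected probe, at 1.20 against 5.19, gave -0.34, so the call rests on 1 probe. Pex26, a membrane anchor, had 73.5 against 6.58 (2.43-fold higher). Pex5, the import receptor, had 160 in osteoclasts against 168 in macrophages and a difference of -0.94 at its brightest probe, and its other 3 detected probes spread between -1.01 and 1.11.

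Counts of the pathway's regulators depended on the scaling. Among all detected genes, 11.5% were 2-fold higher in osteoclasts after normalization and 8.15% lower. Of 11 detected genes 2 passed 2-fold upward, or 1 with Pdk4 at its bound, and 3 downward. The upward count was 2 in the authors' values, 3 under median scaling and 4 without normalization. In that last setting 29.1% of all detected genes were 2-fold higher. The downward count was 2 in the authors' values, 1 under median scaling and 0 without normalization. Ppargc1b, a coactivator of mitochondrial genes, had 710 in osteoclasts against 37.8 in macrophages and was 7.23-fold higher. Esrra, the estrogen-related receptor that it coactivates, had 1463 against 468 and a difference of 0.79. Pdk4, which diverts pyruvate from the citric acid cycle, was detected in osteoclasts only and was at least 1.72-fold higher. Angptl4, a known target gene of PPARs, had 122 in osteoclasts against 243 in macrophages (3.38-fold lower). Its other probe was detected in macrophages only (3.68 in osteoclasts against 11.3). Ppard, itself a fatty acid receptor, had 408 against 562 (2.45-fold lower, with -0.99 under median scaling). Pparg had 840 in osteoclasts against 354 in macrophages, with differences of 0.35 and 0.53 at its probes detected on both arrays. Rxra, the partner of the PPARs, had 26.6 against 46.5 and was 2.19-fold lower, but within 2-fold in the authors' values (-0.90) and under median scaling (-0.83). Ppara and Ppargc1a, the best known drivers of fatty acid oxidation in liver and muscle, were detected on neither array. Beside these lists stood the muscle markers, of which 12 of 13 detected passed 2-fold upward in osteoclasts, and the adipocyte markers, with 4 of 7, or 3 with Cidea at its bound, and their part in the differences was not tested.

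**Figure D4:**
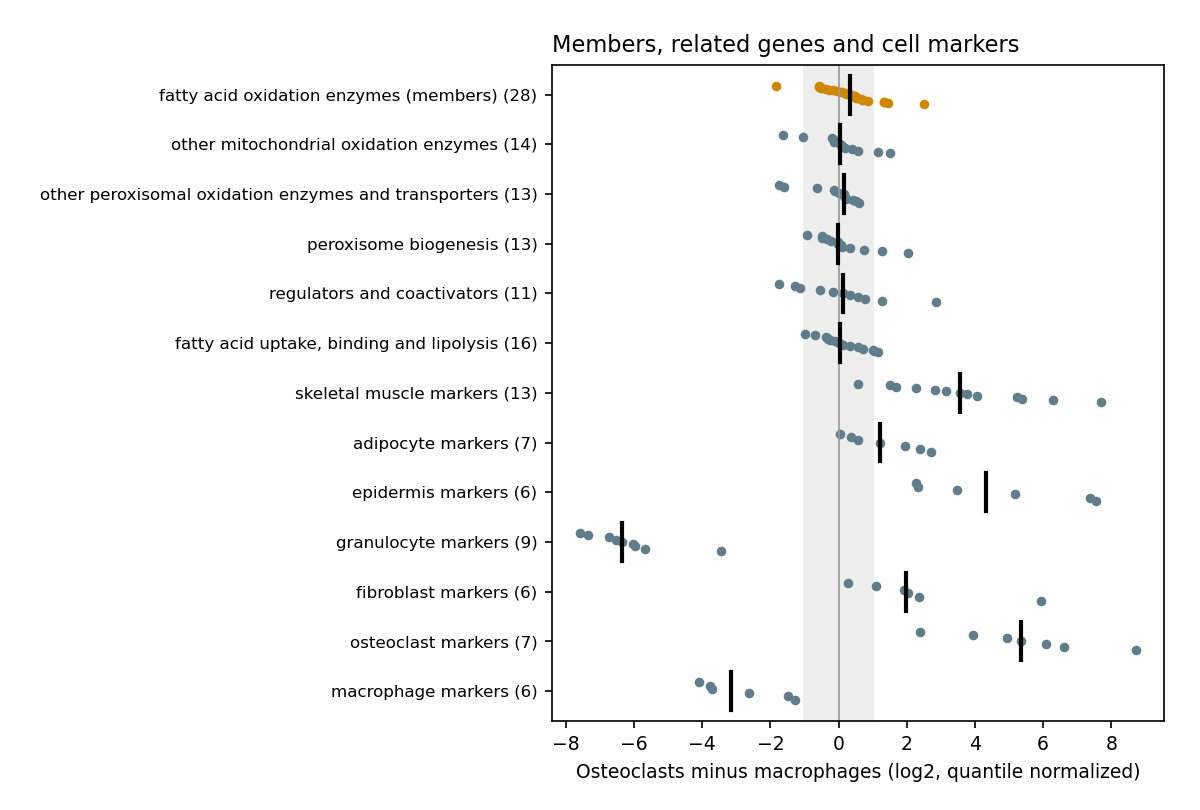
Normalized difference (osteoclasts minus macrophages, log2) of each detected gene (dots) with the median (black bar) for the 28 detected fatty acid oxidation members, 5 related lists and 7 lists of cell markers; numbers of genes are in brackets and the grey band is within 2-fold. Medians of the members and related lists lie inside the band, and those of the marker lists outside it. The adipocyte median (1.22) is the value of Cidea, detected in osteoclasts only, whose bound (0.88) lies inside the band.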

How the data were processed

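Per the labels' protocols, RNA of 2 samples was made into biotin-labelled cRNA for Illumina arrays. The deposited intensity table holds 1 linear value per probe and array, with 36.9% of osteoclast and 38.4% of macrophage values below 0, which only a background subtraction gives; its method and the scanner software: not given in the sources used here. A table processed by the authors holds log2 values of unstated normalization (medians 5.05 for osteoclasts and 5.00 for macrophages); their difference followed the log2 ratio of intensities with slope 0.97 over 5844 probes above 200 on both arrays. Precision is limited by the number of arrays, by background at dim probes and by disagreement between probes.

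Background was estimated per array from the mode (-5.33 for osteoclasts, -3.86 for macrophages) and the spread below it (SD 5.41 and 3.55), since no detection p-values or control probes are in these tables. Limma's normexp (limma 3.58.1, R 4.3.3) with an offset of 16 and quantile normalization followed, then Python 3.11.15 and pandas 2.3.3. The code was run on simulated arrays that shared the same signal, with equal numbers of probes raised and lowered. Such data suit quantile normalization by design, so the run could not show whether it suits these arrays. Gene names came from the platform's annotation (34885 probes with 1 gene, 18 with several, 10378 not listed). The Entrez identifiers of 34807 probes matched RefSeq (GRCm38.p6). "At least N-fold" marks genes detected on 1 array, set against the higher of their own dim value and the lowest detected signal of that array. All members are named. Of each other list, up to 4 genes with the largest differences past 2-fold are named. Atp6v0d2, Mb, Slc25a20, Pex5, Esrra, Rxra, Pparg, Fabp4, Fabp5, Cd36, Cidea, Ppara, Ppargc1a and the markers below the limit were picked after seeing values. The upstream windows of Etfb and Hadhb were outside the plan, which named the members furthest apart. Members and lists were chosen with earlier results of these data known. The 9 alternatives listed for each result were run.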

Additional observations from a re-analysis of the deposited data

How the results depend on the processing

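With 1 array in each group, no replicate could be left out and no error is known. No paired analysis was possible because each group has 1 sample. Leaving out normalization between arrays moved every summary value: the median of the members became 1.00, that of mitochondrial members 1.25 and that of peroxisomal members 0.11, with 14 members at least 2-fold higher and 0 lower, and 24 of 28 single members moved by over 1.5-fold. In that setting 29.1% of all detected genes were 2-fold higher, and 8 members changed sign (Acaa1a, Acot2, Acsl4, Cpt1b, Crat, Hadh, Hadha and Hsd17b4). Under the other alternatives, including members at their bounds, which was added after seeing the data, the median of the members ran between 0.19 and 0.48, the mitochondrial median between 0.40 and 0.59 and the peroxisomal between -0.64 and -0.56. The number 2-fold higher was 3 to 6, with 1 lower in each. Averaging all detected probes moved Etfdh to 0.51, and leaving out background correction moved Ehhadh to 3.07, a gene near background where the array limits precision. Median scaling changed the sign of Acot2 and Hadh (both 0.09), cyclic loess that of Hadh and averaging probes that of Echs1 (-0.08). Counts of the other lists under other scalings were added after seeing the data.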

Other observations

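Genes of fatty acid uptake, binding and release, which feed the pathway, had a median difference of 0.04 over 16 detected members. Of these, 3 were at least 2-fold higher in osteoclasts (against 11.5% of all detected genes), 0 lower (against 8.15%) and 13 within 2-fold. With Slc27a3 at its bound 2 were at least 2-fold higher, and in the authors' values 1 was. Without normalization 6 were, against 29.1% of all detected genes. Lpl, the lipase that frees fatty acids from lipoproteins, had 33885 in osteoclasts against 11162 in macrophages and was 2.02-fold higher. Its difference was 0.72 log2 units under median scaling and 0.86 in the authors' values. The other Lpl probe, at 20.7 against 5.57, gave 0.33. Slc27a1, a fatty acid transporter, had 924 against 216 (2.21-fold higher), and Slc27a3 was detected in osteoclasts only and at least 1.63-fold higher. Cd36, the scavenger receptor that takes up fatty acids, was detected in macrophages only (5.27 in osteoclasts against 14.3) and was at least 1.55-fold lower in osteoclasts. Fabp5, a fatty acid binding protein, had 271 against 297 and a difference of -0.98. Fabp4, a further such protein, was detected on neither array (3.02 in osteoclasts against -5.03 in macrophages). Adipocyte and muscle markers, whose tissues express Lpl, were higher on the osteoclast array too, with list medians of 1.22 and 3.55. The adipocyte median was the value of Cidea, detected in osteoclasts only, whose bound was 0.88. The part of adipocyte and muscle RNA in the values of this list was not tested.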
